A study of Mus musculus with 4 samples.

Results

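Genes of eosinophils, basophils and mast cells were followed in mouse bone marrow neutrophil preparations that carried or lacked miR-125a. The 10 genes, taken as probe sets annotated with exactly 1 of their symbols, are Mcpt8, Epx, Prg2, Prg3, Cpa3, Ms4a2, Fcer1a, Rnase2a, Alox15 and Slc18a2, out of 18193 genes on the array. They were picked with the knockout minus wild-type differences of these same arrays in view, so those differences are given as a description, with no test. The groups were miR-125a-/- (KO) neutrophils without LPS, miR-125a+/+ (WT) neutrophils without LPS, KO neutrophils after 3 h of LPS and WT neutrophils after 3 h of LPS. LPS is the lipopolysaccharide of Gram-negative bacteria. All mice are given as C57BL/6 of 8 weeks, and in all groups cells were taken from marrow with a magnetic bead neutrophil kit and kept in serum-containing RPMI medium. The unstimulated cells are given as 0 h in the titles and as lacking LPS elsewhere. The labels do not say how the miR-125a allele was made or whether littermates were used. RNA of 3 experiments was pooled into 1 array per group, so there are 4 arrays, the spread between mice or experiments cannot be had, and no p-value was computed.

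Eosinophils, basophils and mast cells are granulocyte lineages that, like neutrophils, arise from marrow progenitors, and they are known for their part in allergy and in defence against helminths. Eosinophil granules hold cationic proteins, namely major basic protein, a peroxidase and ribonucleases. Basophils and mast cells carry the high-affinity IgE receptor and store proteases and histamine. Both eosinophils and basophils mature in the marrow, whereas mast cells leave it as progenitors and mature in tissues.

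The deleted microRNA gives 2 mature strands, shown with the seed (bases 2 to 8), which pairs with targets, in capitals. The strands come from RefSeq, build GRCm38.p6, plus strand, at chr17:17830817-17830840 and chr17:17830855-17830876.
mmu-miR-125a-5p: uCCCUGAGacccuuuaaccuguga
mmu-miR-125a-3p: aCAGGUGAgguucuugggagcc
These strands were not measured on the array. Spaca6, which hosts the microRNA, reached a log2 signal of 6.24 at most, too dim to check the genotype labels.

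Promoters are shown for the 4 members lower in KO cells that have one in the RefSeq promoter table (build GRCm38.p6), because these genes were low on the same arrays. Each run holds the 250 bases before the start of the gene, on the gene's own strand, which is the minus strand for all 4. Capitals mark GATAA or its reverse complement TTATC, the core letters bound by GATA factors, which specify these lineages. The windows are chr14:56085198-56085447 for Mcpt8, chr11:87875537-87875786 for Epx, chr3:20242182-20242431 for Cpa3 and chr14:51256113-51256362 for Rnase2a.
Mcpt8: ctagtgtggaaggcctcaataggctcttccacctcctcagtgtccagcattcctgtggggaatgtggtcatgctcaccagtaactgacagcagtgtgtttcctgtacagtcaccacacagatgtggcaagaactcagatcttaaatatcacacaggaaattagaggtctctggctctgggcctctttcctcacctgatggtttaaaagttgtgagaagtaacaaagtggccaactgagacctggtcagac
Epx: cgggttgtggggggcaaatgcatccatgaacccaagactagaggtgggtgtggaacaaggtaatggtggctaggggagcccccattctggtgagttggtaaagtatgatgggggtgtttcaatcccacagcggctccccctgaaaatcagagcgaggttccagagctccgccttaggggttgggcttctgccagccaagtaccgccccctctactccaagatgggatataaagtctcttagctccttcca
Cpa3: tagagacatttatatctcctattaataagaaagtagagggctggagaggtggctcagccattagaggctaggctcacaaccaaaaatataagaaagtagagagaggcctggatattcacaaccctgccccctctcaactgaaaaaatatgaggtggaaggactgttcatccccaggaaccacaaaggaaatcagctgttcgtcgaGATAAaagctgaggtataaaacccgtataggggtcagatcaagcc
Rnase2a: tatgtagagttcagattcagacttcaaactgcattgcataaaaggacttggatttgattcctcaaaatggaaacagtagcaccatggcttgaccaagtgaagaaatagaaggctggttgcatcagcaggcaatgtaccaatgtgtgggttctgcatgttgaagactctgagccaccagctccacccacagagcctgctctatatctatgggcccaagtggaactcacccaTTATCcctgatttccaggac
The letters occur once in the Cpa3 window, beginning 45 bases before the start, and once in the Rnase2a window, beginning 20 bases before it. The windows of Mcpt8 and Epx hold 0. Prg2 and Alox15 had no entry. Of 8 members with a promoter in the table, 6 hold the letters on either strand, as do 23.0% of 27025 promoters of the same length. Besides Cpa3 and Rnase2a these are Prg3, Ms4a2, Fcer1a and Slc18a2, none of which was called lower in KO cells. Ms4a2 and Fcer1a were too dim to be called at either time, as were Prg3 unstimulated and Slc18a2 after LPS. Other letters searched on both strands were GAGGAA, found in 3 of the 8 and 23.1% of all promoters, and TTGCNNAA, found in 2 of the 8 and 9.55% of all promoters. A match is a run of letters and not a shown binding site.

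Values are log2 signals as deposited. A floor was set at the 60th percentile of all values (log2 6.80, signal 111), and between 37.8% and 41.5% of 45101 probe sets lay above it on an array. Measured here means above the floor on 1 or both arrays being compared, and a gene was called lower or higher from a 2-fold difference. Where 1 side lay under the floor, the floor took its place, so the fold is a minimum and is given as "at least" or as a bound. Neutrophil markers were bright on every array: S100a8, a calcium-binding alarmin subunit, had log2 signals between 15.67 and 16.20, S100a9, its partner, between 15.42 and 15.90, and Lcn2, an iron-siderophore binder, between 15.24 and 15.57. Of the 10 genes, 9 had 1 probe set and Ms4a2 had 2.

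Granule genes of eosinophils and basophils were called lower in KO cells, namely Mcpt8, Epx, Prg2, Cpa3 and Rnase2a unstimulated, and Mcpt8 and Prg2 after LPS. Unstimulated, 5 of 7 measured members were called lower, 0 were called higher and 2 were neither, with a median log2 difference of -1.08 (KO minus WT). Over all 9401 measured genes 0.66% were called lower and 0.351% higher, and the median was 0.00. After LPS, 2 of 6 measured members were called lower and 4 were neither, all 6 differences lay below 0, and the median was -0.64. Over all 9262 genes measured after LPS 0.626% were called lower and 0.615% higher, with a median of -0.01. Because the members were picked on these differences, nothing is read from their counts against those shares. In bulk RNA, fewer cells of a type and less RNA per cell cannot be told apart.

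**Figure D1:**
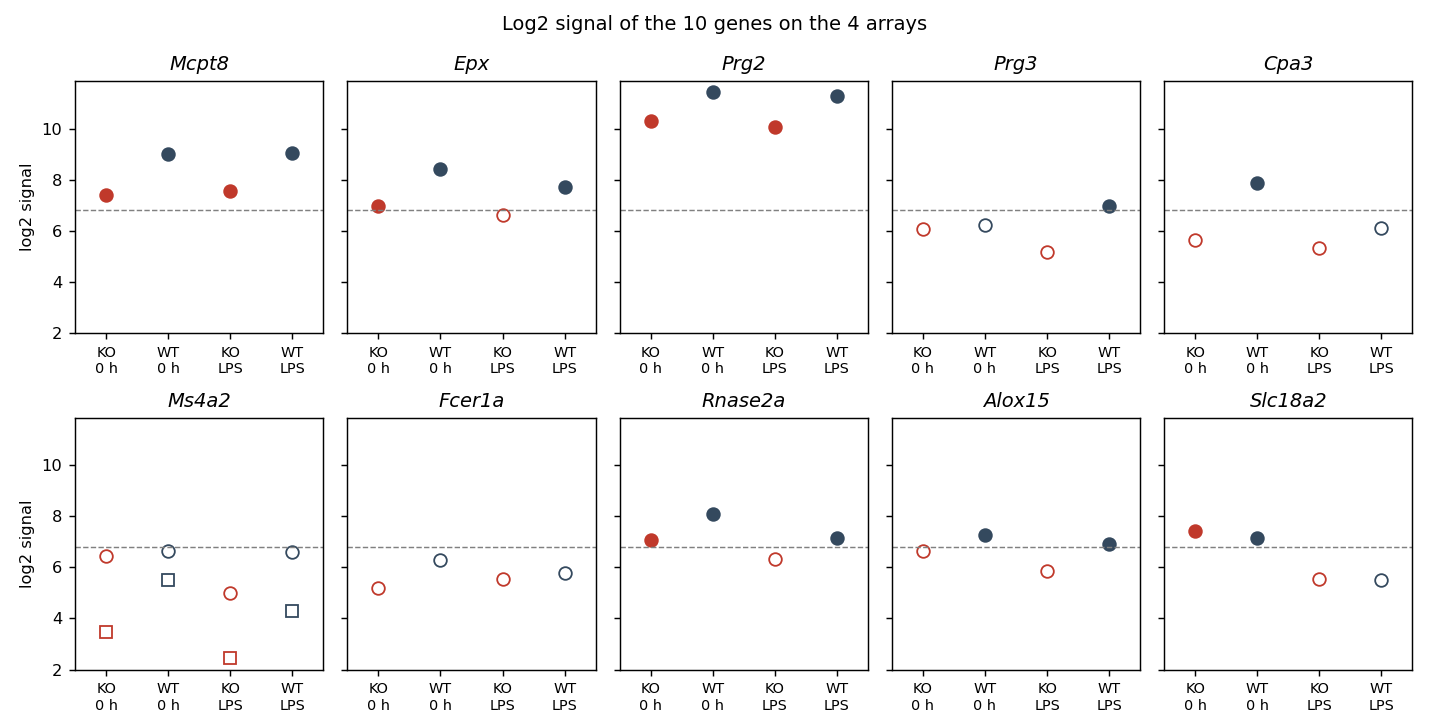
Log2 signal (y axis) of the 10 genes on the 4 arrays (x axis), with KO arrays in red and WT arrays in dark blue, 1 array per group; 0 h stands for unstimulated cells. Filled points lie above the floor of 6.80 (dashed line), open points under it, and squares are the second probe set of Ms4a2; Mcpt8 and Prg2 lie above the floor on all 4 arrays, with both KO arrays under both WT arrays.

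Among the eosinophil granule genes, Prg2, which encodes major basic protein, was above the floor throughout. Its log2 signals were 10.32 in unstimulated KO cells and 11.42 in unstimulated WT cells. After LPS they were 10.06 in KO cells and 11.29 in WT cells. Both KO arrays therefore lay below both WT arrays, 2.15-fold lower unstimulated and 2.34-fold lower after LPS. Epx, the eosinophil peroxidase that makes hypohalous acids, had 6.99 in unstimulated KO cells and 8.43 in unstimulated WT cells, and was 2.72-fold lower in KO cells. After LPS Epx had 6.61, under the floor, in KO cells and 7.73 in WT cells, at least 1.90-fold lower and short of the 2-fold call. With the floor at the 50th percentile, no floor, quantile normalization or median scaling, that difference reached 2-fold, at a log2 value between -1.12 and -1.09. For Epx, too, the KO arrays were below the WT arrays at both times.

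Rnase2a, a ribonuclease of the eosinophil-associated family, had log2 signals of 7.07 in unstimulated KO cells and 8.08 in unstimulated WT cells. The difference of -1.01 stood at the edge of the 2-fold call and was -0.92 after scaling to the poly-A spike-in controls (the poly-A scale). After LPS Rnase2a had 6.34, under the floor, in KO cells and 7.15 in WT cells, a lower bound of 1.28-fold. Prg3, a homologue of Prg2, exceeded the floor only on the LPS WT array. Its log2 signals were 6.05 in unstimulated KO cells and 6.24 in unstimulated WT cells, both under the floor. After LPS they were 5.17 in KO cells and 6.98 in WT cells, and the lower bound was 1.14-fold. Prg3 thus follows the order of the other granule genes only in values that lie largely where this array does not resolve them.

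Mcpt8, a serine protease gene of basophils, was above the floor on all 4 arrays. Its log2 signals were 7.40 in unstimulated KO cells and 9.01 in unstimulated WT cells, a 3.06-fold lower signal in KO cells. After LPS they were 7.57 in KO cells and 9.05 in WT cells, 2.79-fold lower. With bounds ranked at their minimum, the difference of -1.61 was the 13th lowest of 9401 genes unstimulated, and that of -1.48 was the 11th lowest of 9262 after LPS. With the floor at the 75th percentile both KO values lay under it and the bounds were -0.47 and -0.51. Mcpt8 and Prg2 were the members called lower at both times. Over the 8798 genes measured at both times 0.216% were called lower in both and 0.114% higher in both. These 2 comparisons share no array. Nothing here shows that the unstimulated and LPS cells came from separate mice or preparations, so the 2 are not taken as independent repeats.

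Cpa3, a carboxypeptidase of mast cell and basophil granules, was above the floor only in unstimulated WT cells. Its log2 signals were 5.63 in unstimulated KO cells and 7.88 in unstimulated WT cells, so it was at least 2.12-fold lower in KO cells, and without the floor the log2 difference was -2.24. After LPS Cpa3 had 5.34 in KO cells and 6.11 in WT cells, under the floor in both, and no difference is given. Under quantile normalization the unstimulated bound was -0.93, short of the call. Of the 4 members called lower unstimulated without a bound, the folds ran between 2.01 and 3.06.

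The 2 members that encode IgE receptor chains did not exceed the floor on any array. Fcer1a, the chain that binds IgE, had log2 signals of 5.19 in unstimulated KO cells and 6.29 in unstimulated WT cells, and 5.56 in LPS KO cells and 5.79 in LPS WT cells. Ms4a2, the beta chain of the receptor, had 6.46 in unstimulated KO cells and 6.63 in unstimulated WT cells in its brighter probe set. After LPS that probe set had 4.98 in KO cells and 6.60 in WT cells. The dimmer probe set of Ms4a2 had 3.46 in unstimulated KO cells and 5.52 in unstimulated WT cells, and 2.44 in LPS KO cells and 4.30 in LPS WT cells. KO values of both genes were below WT values in every such pair, but all are under the floor.

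Alox15, an arachidonate lipoxygenase of eosinophils and some macrophages, was above the floor on both WT arrays only. It had 6.63 in unstimulated KO cells and 7.26 in unstimulated WT cells, a bound of 1.38-fold, and 5.87 in LPS KO cells and 6.93 in LPS WT cells, a bound of 1.10-fold. Slc18a2, the vesicular transporter that loads histamine and serotonin into granules, differed in direction from the others. It had 7.41 in unstimulated KO cells and 7.17 in unstimulated WT cells, 1.18-fold higher in KO cells, and after LPS 5.56 in KO cells and 5.52 in WT cells, both under the floor. Without the floor, 9 of the 10 genes were lower in KO cells unstimulated and 9 of 10 after LPS, Slc18a2 being the other one each time. Of all 18193 genes, 47.9% and 48.4% were lower in these 2 comparisons without the floor.

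**Figure D2:**
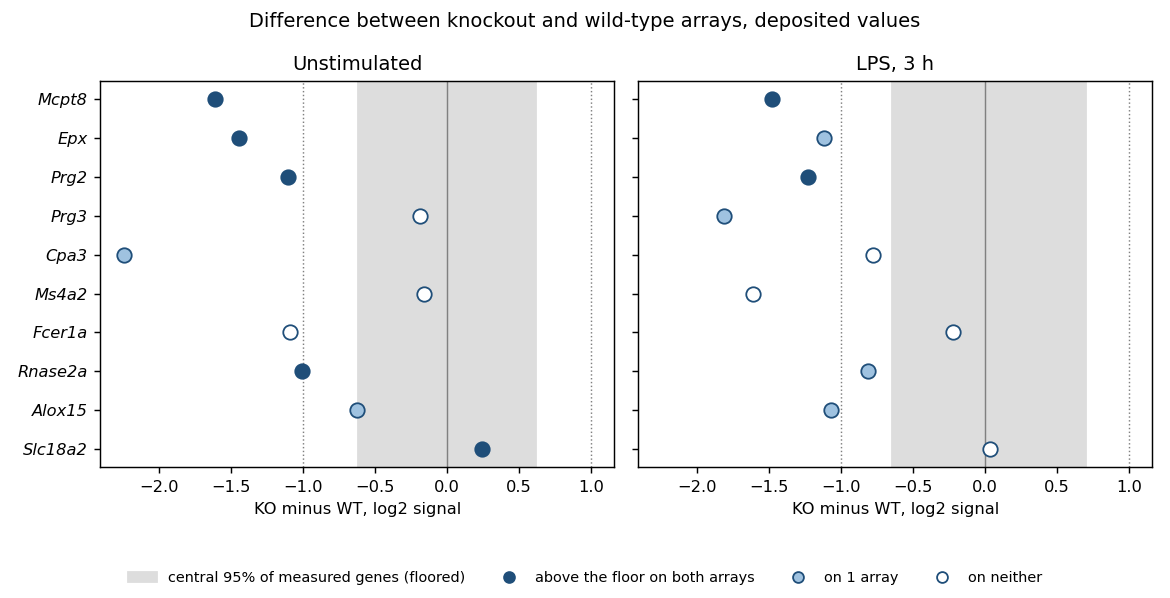
Log2 signal of the KO array minus that of the WT array (x axis) for each of the 10 genes (y axis), unstimulated at left and after LPS at right, from deposited values without the floor. Dark points have both arrays above the floor, pale points 1 and open points neither; the grey band holds the central 95% of measured genes with the floor, and dotted lines mark 2-fold. Mcpt8 and Prg2 are the dark points beyond 2-fold in both panels.

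The members differ in how dim they are, and calls depend on this. In unstimulated cells, 1.35% of the 2144 measured genes with a mean log2 signal below 8 were called lower, against 0.455% of the 7257 at or above 8. Among genes whose mean signal lay within the range of the 7 measured members, 0.874% of 6524 were called lower unstimulated and 0.784% of 6376 after LPS. The share of all called genes that were lower also depended on the scaling. Unstimulated, 33 genes were higher and 62 lower in KO cells as deposited, against 69 and 56 on the poly-A scale. After LPS 57 were higher and 58 lower, against 47 and 76 under quantile normalization and 37 and 108 under median scaling. Under median scaling the median of all genes after LPS was -0.16. Of the members, 0 were called higher in either genotype comparison under any of these scalings.

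**Figure D3:**
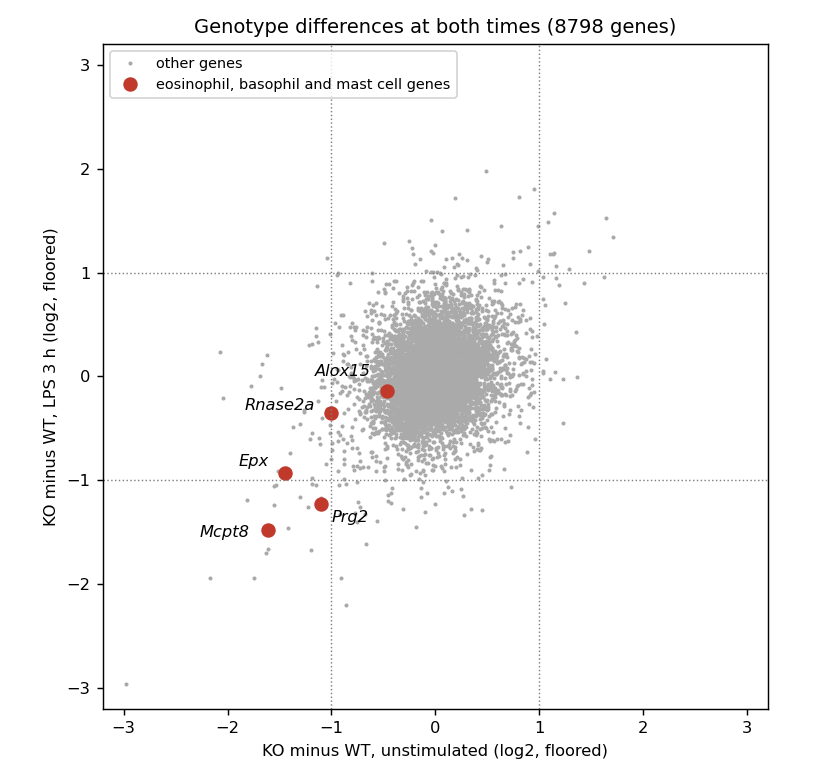
KO minus WT log2 difference unstimulated (x axis) and after LPS (y axis) with the floor, for 8798 genes measured at both times, with the 5 members among them in red and dotted lines at 2-fold. Mcpt8 and Prg2 lie beyond 2-fold on both axes, Epx and Rnase2a on the x axis, and Alox15 on neither; 1 gene lies outside the axes.

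Other genes of the same lineages were mostly too dim to measure. Of 32 further eosinophil, basophil and mast cell genes, 21 had a probe set of their own and 5 of these exceeded the floor on any array. Unstimulated, 0 of 4 measured were called in either direction (median -0.32), and after LPS 0 of 5 (median -0.19). Siglecf, an inhibitory sialic acid receptor of eosinophils, had log2 signals of 7.85 in unstimulated KO cells and 8.18 in unstimulated WT cells, and 6.58 in LPS KO cells and 7.31 in LPS WT cells. The KO value after LPS was under the floor, so the differences were -0.33 unstimulated and a bound of -0.52 after LPS, and neither was called. Adgre4, an adhesion receptor of eosinophils and macrophages, was under the floor unstimulated and had 8.22 in LPS KO cells and 7.90 in LPS WT cells.

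Il18rap, an interleukin-18 receptor chain that basophils share with other leukocytes, differed by -0.44 unstimulated and -0.37 after LPS. Kit, the stem cell factor receptor of mast cells and progenitors, differed by -0.31 and -0.19. Il3ra, the interleukin-3 receptor alpha chain, differed by 0.12 and -0.19. Some defining genes of each lineage were under the floor on all 4 arrays, in contrast to Mcpt8, Prg2, Epx and Siglecf, which exceeded it on 3 or 4. Those under it included the eosinophil receptors Ccr3 and Il5ra, the basophil receptor Cd200r3, and the mast cell proteases Cma1, Mcpt4, Tpsab1 and Tpsb2. The names eosinophil, basophil and mast cell stand here for where these genes are known to be expressed. Cma2 and Mcpt9 share a probe set and were not used.

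Genes of the same pathways that neutrophils also use did not reach 2-fold, and neither did most measured genes. Over all measured genes 0.66% were called lower and 0.351% higher unstimulated, and 0.626% and 0.615% after LPS. These shares stand beside the 0 counts of every list given here. Of 10 matched genes of IgE receptor signalling, 8 were measured and 0 called at either time (medians 0.10 unstimulated and 0.04 after LPS), with Fcer1g, the shared Fc receptor gamma chain, at 0.26 and -0.01 and Syk, the kinase it recruits, at 0.10 and 0.16. Of 16 amine and lipid mediator genes, 0 of 4 were called unstimulated and 0 of 5 after LPS (medians -0.03 and -0.17). Hdc, the enzyme that makes histamine, had 13.95 in unstimulated KO cells and 13.89 in unstimulated WT cells, and 14.10 in LPS KO cells and 14.27 in LPS WT cells. Hdc was thus bright on all 4 arrays and within 1.5-fold between genotypes. The cytokine receptor list had 0 of 8 called at either time (medians -0.01 and -0.16), with Csf2rb, the chain shared by the receptors of interleukin-3, interleukin-5 and GM-CSF, at -0.02 and -0.13.

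Lineage transcription factors had 0 of 11 called at either time (medians -0.21 unstimulated and -0.14 after LPS), and 8 of the 11 differences lay below 0 each time. Mitf, a factor of mast cells that other myeloid cells also express, was the lowest unstimulated, at -0.84, and stood at -0.31 after LPS. Gata2, the factor that basophils and mast cells depend on, had 6.00 in unstimulated KO cells and 6.90 in unstimulated WT cells. After LPS Gata2 had 6.15 in KO cells and 7.55 in WT cells. Both KO values of Gata2 were under the floor and both WT values above it, with bounds of -0.10 and -0.75. Gata1, which eosinophils depend on, exceeded the floor only in LPS KO cells, at 6.88, with 6.45 in LPS WT cells.

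**Figure D4:**
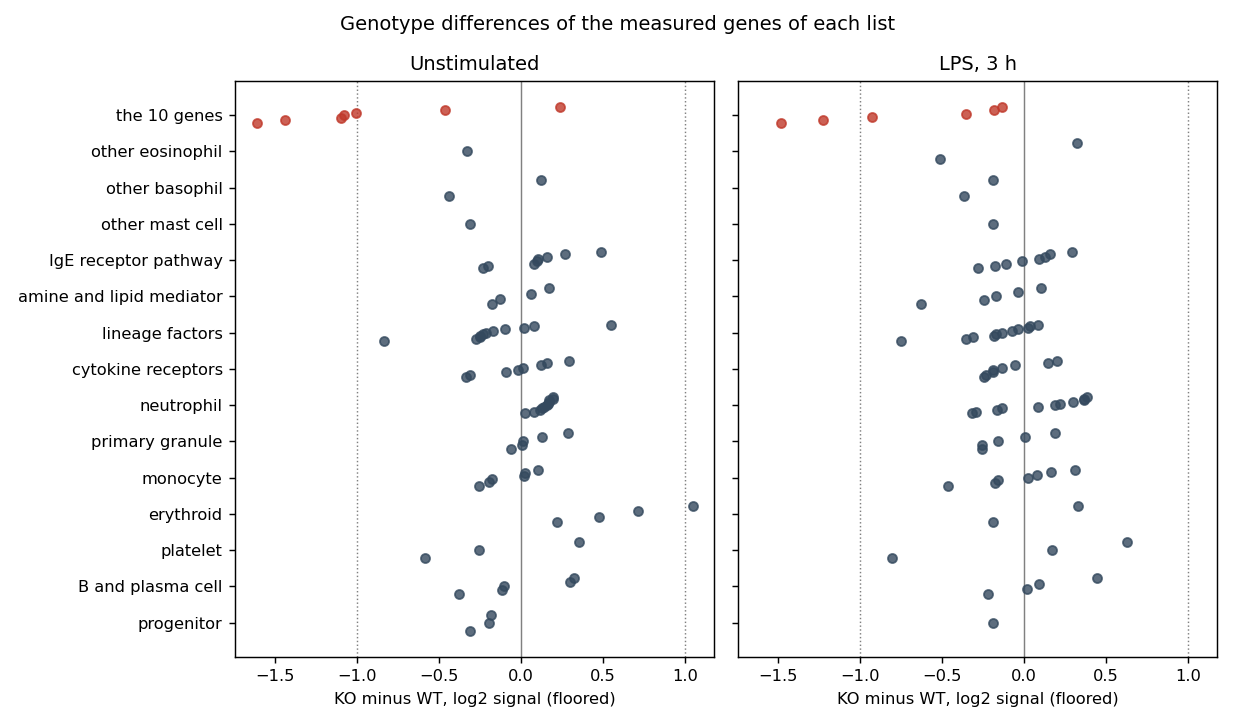
KO minus WT log2 difference with the floor (x axis) of each measured gene of each list (y axis, 1 row per list, genes spread vertically within a row), unstimulated at left and after LPS at right, with the 10 genes in red and dotted lines at 2-fold. In these panels 5 and 2 of the 10 genes lie at or beyond -1. Of the other lists shown, 1 erythroid gene lies beyond 1 unstimulated, and T and NK cell genes, none of them measured, are left out. The 10 genes were picked with these differences in view, so nothing is read from their contrast with the other lists.

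Markers of other cells were set beside these differences. Neutrophil markers had 0 of 11 called, with 11 of 11 differences above 0 unstimulated (median 0.15) and 7 of 11 after LPS (median 0.19). Their summed signal was 335090 in unstimulated KO cells and 303807 in unstimulated WT cells, and 377521 in LPS KO cells and 330281 in LPS WT cells. Primary granule genes of promyelocytes had 0 of 5 called (medians 0.01 and -0.16). Erythroid markers had 1 of 4 called higher unstimulated, Car1, a carbonic anhydrase, with 9.86 in KO cells and 8.81 in WT cells, and 0 of 2 called after LPS. The summed erythroid signal was 3732 in unstimulated KO cells and 2196 in unstimulated WT cells, and 1098 in LPS KO cells and 1138 in LPS WT cells. Monocyte, platelet, B and plasma cell, and progenitor markers had 0 called at either time, and 0 of 6 T and NK cell markers exceeded the floor. The summed B and plasma cell signal was 26819 in unstimulated KO cells and 21702 in unstimulated WT cells, and 22659 in LPS KO cells and 16856 in LPS WT cells. Most of that sum was 1 gene, Jchain, with log2 signals of 14.67 in unstimulated KO cells and 14.35 in unstimulated WT cells. Of the 5 genes of that list measured unstimulated, 3 differences lay below 0 (median -0.11). After LPS 1 of 4 did (median 0.05). The part of these cells in the differences of the 10 genes was not tested.

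Genes that lie near the members on the chromosome were examined next. Of the 3 nearest protein-coding genes on each side of each member, 54 were distinct and not members themselves. Of these, 20 were measured unstimulated and 19 after LPS, with 0 called at either time (medians -0.00097 and -0.15). Over all measured genes 0.66% were called lower and 0.351% higher unstimulated. After LPS these shares were 0.626% and 0.615%, so 0 called is near them. Mcpt8 lies beside Ctsg, the cathepsin G gene of neutrophil granules, which had 13.30 in unstimulated KO cells and 13.37 in unstimulated WT cells, and 13.03 in LPS KO cells and 13.19 in LPS WT cells. Epx lies 3 genes from Mpo, the neutrophil myeloperoxidase gene, which differed by 0.01 unstimulated and -0.26 after LPS. Ms4a2 lies beside Ms4a3, a gene of granulocyte progenitors, at 0.00 and -0.26. Prg2 and Prg3, both members, neighbour each other and are not among the 54, with Slc43a3, a nucleobase transporter gene, on the other side of Prg2 at 0.05 and -0.34. Ctsg and Mpo were the only measured neighbours of Mcpt8 and Epx. Neighbours of Rnase2a and Fcer1a that are on the array were all under the floor.

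Between LPS and unstimulated arrays, which are the same 4 arrays paired the other way, 1 member in all was called. The labels do not settle whether the unstimulated cells were also cultured for 3 h. Effects of LPS and of time in culture therefore cannot be told apart in these comparisons. In KO cells 0 of 5 measured members were called (median -0.25), where 7.99% of 9578 genes were called lower and 6.62% higher. In WT cells 1 of 8 was called lower and 0 higher (median -0.35), where 9.69% of 9507 genes were called lower and 7.29% higher. The called gene was Cpa3, at least 2.12-fold lower in LPS WT cells, a bound set by the same unstimulated WT value as its genotype difference. The split of all genes in KO cells was 634 higher and 765 lower, against 735 and 633 with quantiles matched, 737 and 626 with medians matched, and 314 and 2574 on the poly-A scale. In WT cells it was 693 and 921, against 835 and 707 with quantiles matched, 1030 and 620 with medians matched, and 340 and 2389 on the poly-A scale.

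Mcpt8 was near its unstimulated level after LPS in both genotypes, with log2 differences of 0.17 in KO cells and 0.04 in WT cells, which were -0.44 and -0.52 on the poly-A scale. Prg2 had -0.25 in KO cells and -0.13 in WT cells, the last of these being 0.12 under median scaling. Epx had at least 1.14-fold lower signal in KO cells after LPS and 1.63-fold lower signal in WT cells. Rnase2a had at least 1.21-fold lower signal in KO cells and 1.90-fold lower in WT cells. Slc18a2 was above the floor only in unstimulated cells, with bounds of 1.53-fold in KO cells and 1.30-fold in WT cells, and without the floor its differences were -1.85 and -1.65. The 2 responses did not differ by 2-fold for any of 5 measured members (KO response minus WT response, median 0.13), while 1.27% of 9220 genes were called higher and 0.9% lower. For all genes that split was 117 higher and 83 lower, against 88 and 109 with quantiles matched, 73 and 137 with medians matched, and 89 and 98 on the poly-A scale. Of the members, Rnase2a at 0.65 and Epx at 0.52 had the highest values, each with 1 array at the floor. Slc18a2, at -0.24, had both LPS arrays at the floor, so its value only repeats its unstimulated genotype difference with the sign reversed.

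The pattern over the 4 arrays was compared with 8155 other genes above the floor on all of them, for the 2 members that were so too. Likeness was the Euclidean distance between log2 profiles after each gene's mean was removed, over 4 arrays. Nearest to Mcpt8 were Dsp, which encodes the junction protein desmoplakin (distance 0.17), Col5a1, a collagen chain (0.29), and Riok2, a kinase of ribosome maturation (0.32). Nearest to Prg2 were Cd84, a SLAM family receptor (0.15), Rab44, a large Rab GTPase (0.29), and Ppp2r3d, a phosphatase subunit (0.31). The distance between Mcpt8 and Prg2 was 0.50, so each had at least 3 genes closer to it than the other. Over 4 arrays, any gene with a like offset between KO and WT arrays at both times lies near, whatever its lineage. Why these genes were near, including where they lie on the chromosome, was not tested.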

How the data were processed

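RNA pooled from 3 experiments per group, per the series design text, was hybridised to 1 Affymetrix array per group. The deposited values are log2 signals of MAS5 (version not given), per the submitters' processing notes. On every array the unlogged signals, trimmed by 2% at each end, averaged 500.003 or 500.004, so a shift shared by most genes would not show. MAS5 works on 1 array at a time, and dim probe sets scatter widely. There is no read depth; precision is limited by having 4 arrays.

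Of 45101 probe sets, 34958 had 1 symbol in the platform annotation; 932 with several, and controls, were left out. A gene's value is its probe set with the highest mean. Differences were taken in Python 3.11.15 with pandas 2.3.3, and the code was tested on simulated data. Of 158 list symbols, 133 were matched. Named genes were all members, lineage genes above the floor, list genes called by genotype, the 3 brightest neutrophil markers and the 3 nearest profiles; other list genes, neighbours and dim defining markers were named after values were seen. Members and lists were chosen with earlier results of these data known. Alternatives varied the floor, scaling, probe set rule, filter and fold.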

Additional observations from a re-analysis of the deposited data

How the results depend on the processing

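The genotype direction of the 7 members measured unstimulated and the 6 measured after LPS was kept under each scaling that gave a value. The scalings were quantile normalization, median scaling and the poly-A scale. Direction was below 0 for all but Slc18a2 (0.23 to 0.33). The other alternatives could not reverse a sign. A floor or filter keeps it, and the probe set rules left the value of each measured member unchanged. Counts of members called depended on the floor, the fold, the scaling and the filter. Unstimulated, 5 were called lower in KO cells, against 1 with a 75th-percentile floor, 6 with no floor and 0 at 4-fold. That count was 4 under quantile normalization, on the poly-A scale and with genes above the floor on both arrays. After LPS 2 were called, against 4 with a 50th-percentile floor, 1 with a 75th-percentile floor, 6 with no floor and 0 at 4-fold. The LPS count was 3 under quantile normalization, under median scaling and at 1.5-fold. With no floor, 9.92% of all genes were called lower unstimulated and 10.4% after LPS. For LPS in KO cells 0 were called, against 1 with a 50th-percentile floor, 2 with no floor and 1 at 1.5-fold. For LPS in WT cells 1 was called, against 2 with a 50th-percentile floor, 0 with a 75th-percentile floor, 2 with no floor, 0 under quantile normalization, 3 on the poly-A scale, 0 with genes above the floor on both arrays, 3 at 1.5-fold and 0 at 4-fold. For the difference of responses 0 were called, against 3 with no floor and 1 at 1.5-fold. The poly-A scale (24 control probe sets) moved the median of all genes to -0.61 for LPS in KO cells and -0.54 in WT cells, from which its calls there should be read; median scaling moved it to 0.20 in WT cells. A higher floor leaves fewer genes to measure; the cause of the other shifts was not tested. Of 238 single-gene values under alternatives, 215 kept their sign and side of 2-fold, 13 passed it, 5 fell short and 5 that were not called changed sign. The 215 include every value under the probe set rules and the filter for both arrays above the floor. Those values could not differ from the main ones, so the 215 overstate how stable the values are. No paired analysis was possible because each group holds 1 array, so the groups share fewer than 2 replicate numbers. An additive fit of genotype and LPS, with 1 residual degree of freedom, was not made.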
